A study of Mus musculus with 4 samples.

Results

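The heat shock proteins and their J-domain cochaperones are the chaperones that fold, refold and hold other proteins. Their mRNAs were compared between anti-Cpeb4 and control IgG immunoprecipitates of mouse V-SVZ, the ventricular-subventricular zone, where neurons are born along the lateral ventricles. Members were chosen by gene symbol alone, and 79 of the 53379 genes of the deposited table matched. They comprise 4 Dnaja, 13 Dnajb and 26 Dnajc genes, 11 Hsp70 (Hspa) genes, 3 Hsp110 genes (Hspa4, Hspa4l and Hsph1), 3 Hsp90 genes, 8 small heat shock (Hspb) genes, Hspd1 and Hspe1, and 9 genes of the cytosolic Cct chaperonin. All libraries came from wild-type mice of the CD1 strain, aged P7/P8 (postnatal days 7 and 8). The RNA-binding protein Cpeb4 recognises polyadenylation elements of mRNAs in the cytoplasm and regulates their poly(A) tails and translation. There were 2 experiments, and each gave a library per antibody, so that n = 2 for Cpeb4 and for IgG throughout. Whether the animals differed between experiments is not given in the labels. The p-values therefore reflect variation among these libraries only, which may be technical. In bulk precipitates, fewer cells of a type and less RNA per cell cannot be told apart.

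Hsp70 proteins bind short hydrophobic stretches of unfolded chains and release them in a cycle driven by ATP. J-domain proteins (Dnaja, Dnajb and Dnajc) deliver clients to Hsp70 and stimulate its ATPase, and Hsp110 proteins exchange its nucleotide. Hsp90 acts later on partly folded clients such as kinases and steroid receptors. Chaperonins enclose clients in a ring: Cct (also called TRiC), built of 8 kinds of subunit, folds actin and tubulin in the cytosol, and Hsp60 (Hspd1) with its lid Hsp10 (Hspe1) acts in mitochondria. Many of these genes are induced through heat shock elements in their promoters, and those of the endoplasmic reticulum (ER) through ER stress elements.

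Promoter sequences are shown because members that share such an element, among them the neighbours Hspd1 and Hspe1, had unlike values below. RefSeq promoter windows (GRCm38.p6, 250 bases before to 50 after a start) matched 65 of the 79 members. The heat shock element was searched on both strands as GAA, 2 bases of any kind, TTC, 2 bases of any kind and GAA. It was in 6 of the 84 windows of members and in 0.603% of all 32851 windows. Some of these windows overlap and hold the same site. By gene, it was in 4 of the 65 members and in 0.662% of all 27025 genes with a window. The ER stress element was searched on both strands as CCAAT, 9 bases of any kind and CCACG. It was in 3 of the 84 and in 0.119% of all windows, and by gene in 3 of the 65 and in 0.137%. A match describes letters only. Capitals mark the fixed letters of the element, and each line shows 30 bases on the gene's own strand.
Hspe1 (chr1:55088053-55088082, plus strand): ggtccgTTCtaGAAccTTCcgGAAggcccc
Hspd1 (chr1:55088053-55088082, minus strand): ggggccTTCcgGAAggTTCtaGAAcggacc
Dnajb6 (chr5:29735844-29735873, plus strand): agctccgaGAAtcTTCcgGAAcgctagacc
Hspa5 (chr2:34772020-34772049, plus strand): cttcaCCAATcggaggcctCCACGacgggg
Dnajc3 (chr14:118937822-118937851, plus strand): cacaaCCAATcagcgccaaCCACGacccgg
Hsp90b1 (chr10:86705632-86705661, minus strand): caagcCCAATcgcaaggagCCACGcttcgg
Hspd1 and Hspe1 lie head to head on chromosome 1 and are transcribed away from each other. RefSeq gives Hspd1 2 windows. The inner one shares 285 of 300 bases with that of Hspe1, and the same heat shock element site, 2 overlapping matches, stands before both of these starts. The outer one shares 4 bases with it, and the site lies downstream of that start. Which start was used in this tissue was not tested. The remaining gene with a heat shock element was Hsph1, where it lies after the start, and Hsp90b1 held a further ER stress element.

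Of the 79 members, 68 reached at least 1 FPKM (the authors' fragment count scaled by gene length and library depth) in 2 or more libraries and were tested. All but 1 of them, Dnajc12, did so in all 4 libraries. With limma across all 15745 tested genes, at a Benjamini-Hochberg adjusted p under 0.05, 31 members were higher in Cpeb4 precipitates, 2 were lower and 35 were not called. The background share of genes called higher was 38.8%, against 45.6% of the members, and the share called lower was 11.6%, against 2.94%. A call in either direction was made for 50.4% of all tested genes and for 33 members. The median log2 fold change, on the log2(FPKM + 1) scale used throughout, was 0.26 for the members and 0.19 for all tested genes. At least a 2-fold rise accompanied 10 of the calls, a share of 14.7% beside 10.8% of all tested genes. Both Cpeb4 libraries lay above both IgG libraries for 47 of the 68, 69.1% beside a background of 53.2%, and below them for 5, 7.35% beside 22.7%. In the authors' deposited table, 28 of the 74 members with an adjusted p were higher and 0 lower. The background there was 21.7% higher and 4.93% lower, over 22709 genes, a wider set than the 15745 tested here. The 28 were among the 31 called here.

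How libraries are scaled shifts every gene together, so calls are also given under all 5 scalings that were tried. The median of all tested genes was 0.19 with the authors' scaling, -0.24 with read totals, -0.18 by upper quartile, -0.04 by trimmed mean of M-values and -0.09 after centring on the median. The members' medians moved with it, to -0.14, -0.09, 0.04 and -0.01 under those 4 scalings. With read totals 17 members were called higher and 21 lower, where the backgrounds were 17.5% and 42.4%. By upper quartile 17 were higher and 17 lower (backgrounds 19.6% and 37%), and by trimmed mean of M-values 20 and 5 (25.6% each). After centring 18 were higher and 10 lower (23.6% and 29.9%). Under all 5, 17 members were higher, 25% of those tested beside a background of 17.5%. The same 2 were lower, beside 11.6%, but the 4 other scalings lower every log2 fold change and so could not remove a lower call. These 17 were Dnaja1, Dnaja2, Dnajb4, Dnajb9, Dnajb14, Dnajc3, Dnajc5, Dnajc6, Dnajc10, Dnajc18, Dnajc19, Dnajc24, Hspa13, Hspa4l, Cct2, Cct4 and Cct6a. Each of the other 14 higher calls was lost under at least 1 scaling. With limma without IgG replicate 1 the members' median log2 fold change was 0.27, beside 0.19 for all tested genes. Without IgG replicate 2 it was 0.33 beside 0.18. The medians were 0.26 and 0.18 without Cpeb4 replicate 1, and 0.29 and 0.21 without Cpeb4 replicate 2. The fits with a lone IgG library assume that it varies as the Cpeb4 pair does and have larger standard errors.

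**Figure D1:**
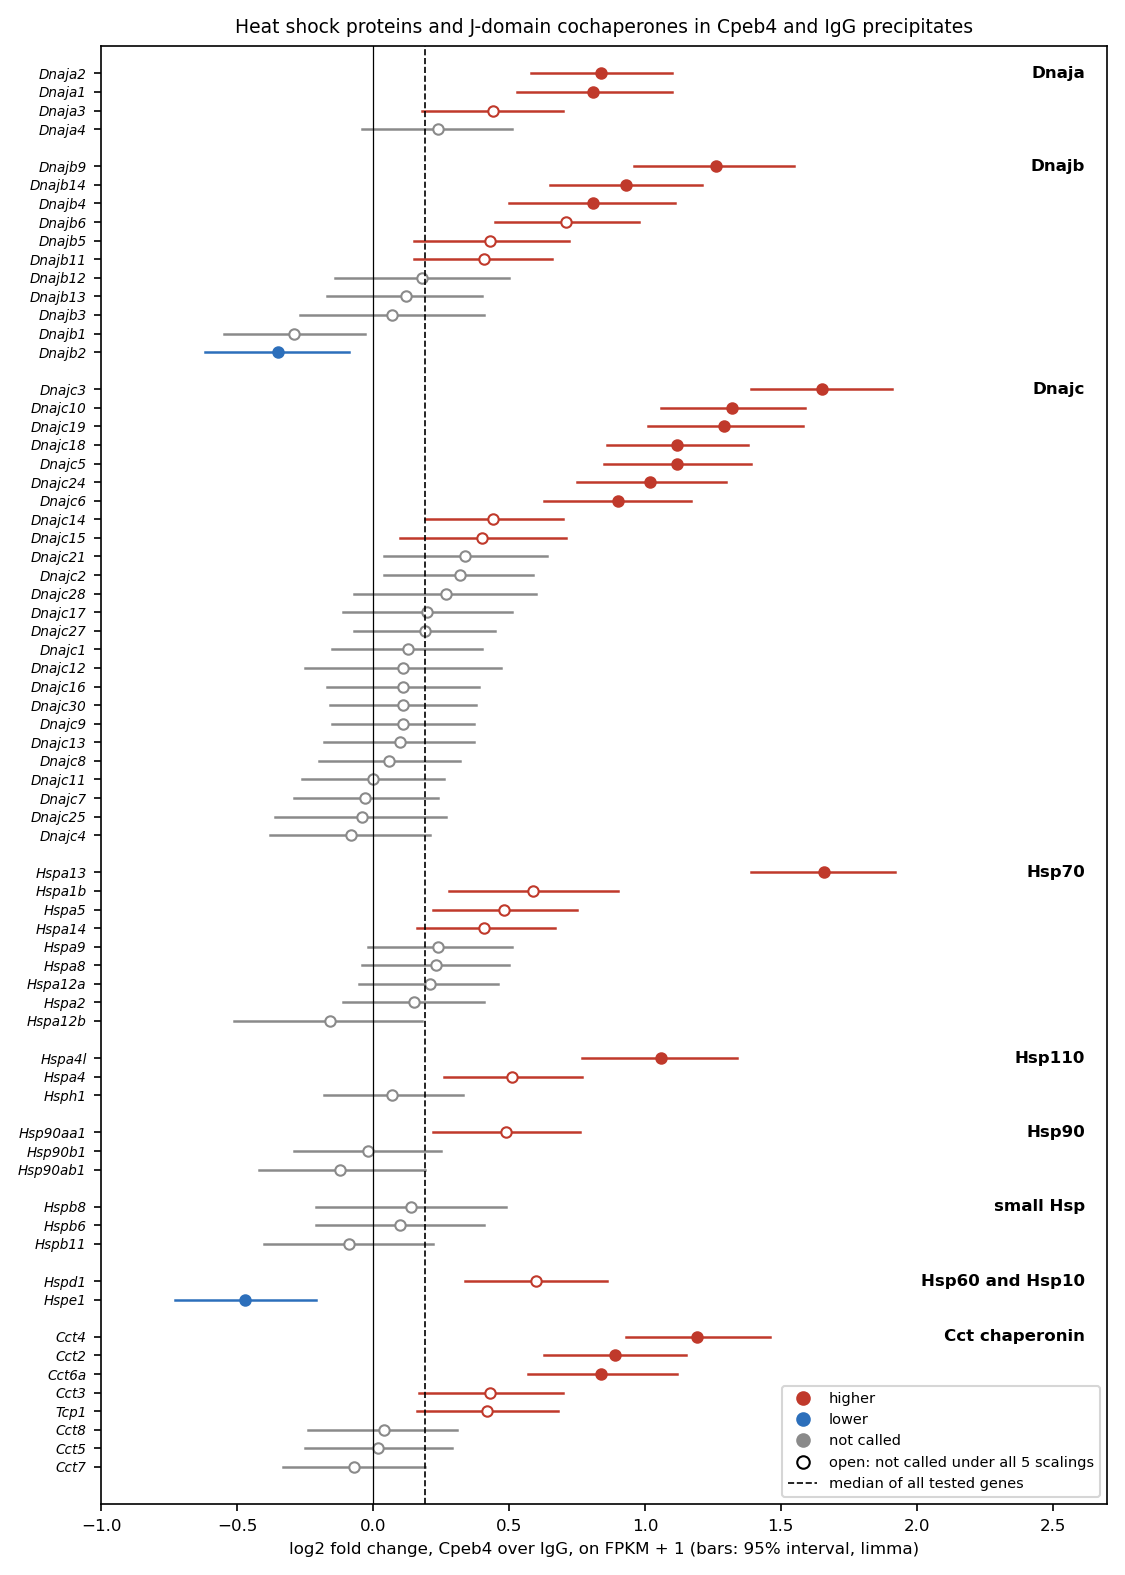
Log2 fold changes of the 68 tested members (x axis, Cpeb4 over IgG on FPKM + 1, with 95% intervals from limma), grouped by family along the y axis. Red points were called higher, blue lower and grey not called. Filled points kept their call under all 5 scalings, which a lower call could not lose. The dashed line is the median of all tested genes, 0.19. Hspa13 and Dnajc3 stand furthest to the right, at 1.66 and 1.65, and Hspe1 furthest to the left, at -0.47.

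The Hsp70 family spanned the members' highest log2 fold change and values near 0. Hspa13 (Stch), an Hsp70-like ATPase of the ER, was at 40.1 and 46.1 FPKM in the Cpeb4 libraries of experiments 1 and 2 and at 13.1 and 12.8 in the IgG libraries. The groups lay far apart, and the rise of Hspa13 was 3.16-fold after adding 1 to each FPKM (log2 1.66, SE 0.12, limma adjusted p = 6.91e-08). Hspa8, the constitutive Hsc70 of the cytosol and the most abundant of the family, was at 94.9 and 86.8 FPKM in Cpeb4 and 79.8 and 74.6 in IgG. Both Cpeb4 values were above both IgG values, but Hspa8 was not called (log2 0.23, 95% interval -0.04 to 0.50, limma adjusted p = 0.145). Hspa5 (BiP), the main Hsp70 of the ER lumen, was at 74.4 and 72.5 against 54.0 and 50.5 FPKM and was higher at log2 0.48 (SE 0.13, limma adjusted p = 0.00422). That call held under 1 of the 5 scalings only, and the Hspa5 span overlaps Rabepk, whose reads an assay without strand cannot separate. In RefSeq 36 members overlap another gene, among them Dnajb4, Dnajb11, Dnajc3, Dnajc14, Dnajc19 and Tcp1, and the same limit holds for each.

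Hspa14, the ribosome-associated Hsp70 that works with Dnajc2, was higher at log2 0.41 (limma adjusted p = 0.00976). Hspa9 (mortalin) of mitochondria and the testis-enriched Hspa2 were not called, at 0.24 and 0.15. The lowest of the family was Hspa12b, an atypical Hsp70 of endothelial cells, at 1.21 and 1.55 FPKM in Cpeb4 and 1.59 and 1.72 in IgG (log2 -0.16, not called). The classic heat-inducible pair was scarce in all libraries. Hspa1b was at 3.90 and 4.46 FPKM in Cpeb4 and 2.69 and 2.21 in IgG (log2 0.59, limma adjusted p = 0.00339), and Hspa1a was below 0.66 FPKM everywhere and was not tested. Hspa1a and Hspa1b are near-identical copies, so the split of reads between them is uncertain. Of 9 Hsp70 genes tested, 4 were higher and none lower, and 1, Hspa13, was higher under all 5 scalings. These shares, 44.4% and 11.1%, stand beside 38.8% and 17.5% of all tested genes.

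Among the Hsp110 nucleotide exchange factors, Hspa4l (Apg1) stood out from its paralogs. It was at 15 and 18.6 FPKM in Cpeb4 and 7.89 and 7.17 in IgG, 2.08-fold higher (log2 1.06, SE 0.13, limma adjusted p = 7.03e-06). Hspa4 (Apg2), at 20.3 and 22.3 against 13.8 and 15.4 FPKM, was higher at log2 0.51 (limma adjusted p = 0.00217) under 1 of 5 scalings. The heat-inducible Hsph1 was at 17.4 and 17.8 FPKM in Cpeb4 and 16.4 and 17.0 in IgG, close together, and was not called (log2 0.07, 95% interval -0.18 to 0.33). The ratio of Hspa4l to Hsph1 within a library does not depend on scaling. It was 0.863 and 1.05 in the Cpeb4 libraries and 0.481 and 0.423 in the IgG libraries.

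The constitutive cytosolic isoform Hsp90ab1 was the most abundant of all members. Of the 3 Hsp90 genes among the members, only the inducible isoform was called with the authors' scaling. Hsp90ab1 was at 230 and 223 FPKM in Cpeb4 and 241 and 249 in IgG. Both Cpeb4 values lay just below both IgG values, and Hsp90ab1 was not called (log2 -0.12, SE 0.14, limma adjusted p = 0.532), although each of the other 4 scalings called it lower. The inducible isoform Hsp90aa1 was at 69.6 and 78.7 FPKM against 51.9 and 53.1, with no overlap, and was higher at log2 0.49 (SE 0.13, limma adjusted p = 0.00427) under the authors' scaling alone. Hsp90b1 (Grp94), the isoform of the ER lumen, was at 66.4 and 72.9 FPKM in Cpeb4 and 71.7 and 69.2 in IgG, which overlap (log2 -0.02, 95% interval -0.29 to 0.25). It was called lower under 3 of the 5 scalings. The ratio of Hsp90aa1 to Hsp90ab1 was 0.328 ± 0.0357 (SD, n = 2) in Cpeb4 and 0.214 ± 0.00157 (n = 2) in IgG libraries, 1.53 times as high.

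Of the 4 J-domain cochaperones of class A, which carry a zinc-binding domain, 3 were higher, 75% beside 38.8% of all tested genes. Under all 5 scalings 2 were higher, 50% beside 17.5%. Dnaja1 (Hdj2), the most abundant, was at 41.7 and 51.4 FPKM in Cpeb4 and 27.3 and 24.6 in IgG (log2 0.81, SE 0.13, limma adjusted p = 9.74e-05). Dnaja2 was at 36.4 and 42.1 against 21.0 and 21.8 FPKM (log2 0.84, SE 0.12, limma adjusted p = 3.03e-05). Both were higher under all 5 scalings, with no overlap between antibodies. The mitochondrial Dnaja3 (Tid1) was higher at log2 0.44 under the authors' scaling alone, and Dnaja4 was not called at 6.71 and 6.22 against 5.84 and 4.85 FPKM (log2 0.24).

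Class B members, related to the general Hsp40, went both ways. Of 11 tested, 6 were higher (54.5%, beside 38.8% of all tested genes), 3 of them under all 5 scalings (27.3% beside 17.5%), and 1 was lower (9.09% beside 11.6%). The highest was Dnajb9 (ERdj4), a BiP cochaperone induced by ER stress, at 10.9 and 16.8 FPKM in Cpeb4 and 4.94 and 5.26 in IgG. The Cpeb4 libraries differed from each other but both were far above IgG, and Dnajb9 was 2.39-fold higher (95% interval of the log2 fold change 0.96 to 1.55, limma adjusted p = 2.04e-06). Dnajb6, an inhibitor of polyglutamine aggregation and the most abundant of the class, was at 28.0 and 32.8 against 18.2 and 18 FPKM (log2 0.71, SE 0.12, limma adjusted p = 0.000175). It was higher under 3 of 5 scalings. Dnajb4 was higher at log2 0.81 under all 5 scalings and Dnajb5 at 0.43 under 1.

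Dnajb2 (Hsj1), a neuronal cochaperone that guides clients to the proteasome, was lower. It was at 9.03 and 7.77 FPKM in Cpeb4 and 11.1 and 10.9 in IgG, with no overlap (log2 -0.35, SE 0.13, limma adjusted p = 0.0275). Dnajb1, the main heat-inducible Hsp40, was at 13.2 and 11.8 against 15.7 and 15.2 FPKM. It was not called with the authors' scaling (log2 -0.29, limma adjusted p = 0.0631) and was called lower under the other 4, at log2 -0.77 to -0.55. The Dnajb2 call was lost without IgG replicate 1 (limma adjusted p = 0.197) and without IgG replicate 2 (limma adjusted p = 0.18), with log2 fold changes of -0.35 and -0.36 and an SE of 0.19.

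Class C members share only the J domain and have specialised roles. Of 25 tested, 9 were higher, 36% beside 38.8% of all tested genes, and none was lower. Under all 5 scalings 7 were higher, 28% beside 17.5%, and 6 rose at least 2-fold, 24% beside 10.8%. Dnajc3 (P58IPK), an ER lumenal cochaperone and inhibitor of the stress kinase PERK, was at 27.8 and 30.6 FPKM in Cpeb4 and 8.81 and 8.43 in IgG. It was 3.14-fold higher (log2 1.65, SE 0.12, limma adjusted p = 6.91e-08). Dnajc10 (ERdj5), a disulfide reductase of ER-associated degradation, was at 49.3 and 53.4 against 20.5 and 19.3 FPKM, 2.5-fold higher (log2 1.32, SE 0.12). Neither overlapped between antibodies, and replicates of each antibody lay close together.

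Dnajc5 was the most abundant of the class. It encodes cysteine string protein, which keeps SNARE proteins of synaptic vesicles folded. Dnajc5 was at 109 and 115 FPKM in Cpeb4 and 50.1 and 52.4 in IgG, 2.17-fold higher (log2 1.12, SE 0.13, limma adjusted p = 2.47e-06). The difference was log2 1.11 in experiment 1 and 1.12 in experiment 2. Dnajc6 (auxilin), the neuronal cochaperone that uncoats clathrin vesicles, was higher at 17.3 and 22.0 against 9.81 and 10.1 FPKM (log2 0.90, limma adjusted p = 2.11e-05). Dnajc13 (RME-8) of endosomes was not called, at 7.06 and 8.45 against 7.02 and 7.32 FPKM (log2 0.10, 95% interval -0.18 to 0.37). Dnajc24, which acts in the synthesis of diphthamide on elongation factor 2, and Dnajc18 were higher at log2 1.02 and 1.12 under all 5 scalings. The lowest of the class was Dnajc4, at 5.40 and 4.69 against 4.91 and 5.90 FPKM (log2 -0.08, not called).

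Class C proteins of the nucleus and the ribosome were not called with the authors' scaling, though Dnajc8 and Dnajc9 were each called lower under 2 of 5. Dnajc8, a splicing-associated protein, Dnajc9, a chaperone of histone H3, and Dnajc17 had log2 fold changes of 0.06, 0.11 and 0.20. Dnajc2 (zuotin or Mpp11), the J-domain partner of Hspa14 at the ribosome, was at 6.74 and 6.82 against 4.92 and 5.58 FPKM, just short of a call (log2 0.32, limma adjusted p = 0.0522). Dnajc21, which acts in ribosome assembly, was likewise at log2 0.34 (limma adjusted p = 0.0531). Of the 6 members assigned to the nucleus or ribosome, 1, Hspa14, was called higher, 16.7% beside 38.8% of all tested genes. That call held under 1 of the 5 scalings.

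The ER members include lumenal proteins and membrane proteins such as Dnajb12, Dnajb14 and Dnajc14. Of the 11 assigned by hand, 8 were higher, 5 of them under all 5 scalings, and none was lower. The backgrounds were 38.8% and 17.5% of all tested genes. Their median log2 fold change was 0.48, beside 0.19 for all tested genes. The 5 were Hspa13, Dnajc3, Dnajc10, Dnajb9 and Dnajb14, an ER membrane J-domain protein at 8.35 and 10.7 against 4.47 and 4.50 FPKM. Dnajb11 (ERdj3), which binds unfolded chains before BiP, and Dnajc14 were higher at log2 0.41 and 0.44 under the authors' scaling alone. Dnajb12 and Dnajc1 were not called, at log2 0.18 and 0.13.

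Among the lumenal members, some had a larger difference between antibodies than Hspa5, others a similar one, and Hsp90b1 a smaller one. The gene pairs of the ratios in this text were chosen after values were seen. The ratio of Dnajc3 to Hspa5 within a library was 0.398 ± 0.0345 (SD, n = 2) in Cpeb4 and 0.165 ± 0.00258 (n = 2) in IgG, 2.41 times as high. The ratios of Dnajc10 and Dnajb9 to Hspa5 were 1.84 and 1.94 times as high in Cpeb4 as in IgG. That of Dnajb11 to Hspa5 was 0.220 and 0.219 in Cpeb4 and 0.217 and 0.241 in IgG, which overlap. The ratio of Dnajc1, another ER member, to Hspa5 was lower with Cpeb4. It was 0.0835 and 0.091 in Cpeb4 and 0.109 and 0.112 in IgG, 0.788 times as high. Hspa5, Dnajc3 and Hsp90b1 are the 3 members with an ER stress element in the sequences shown above, and their log2 fold changes were 0.48, 1.65 and -0.02. An exact two-sided permutation test of 2 against 2 libraries cannot give a p below 0.333, so ratios are given as values without a test.

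**Figure D2:**
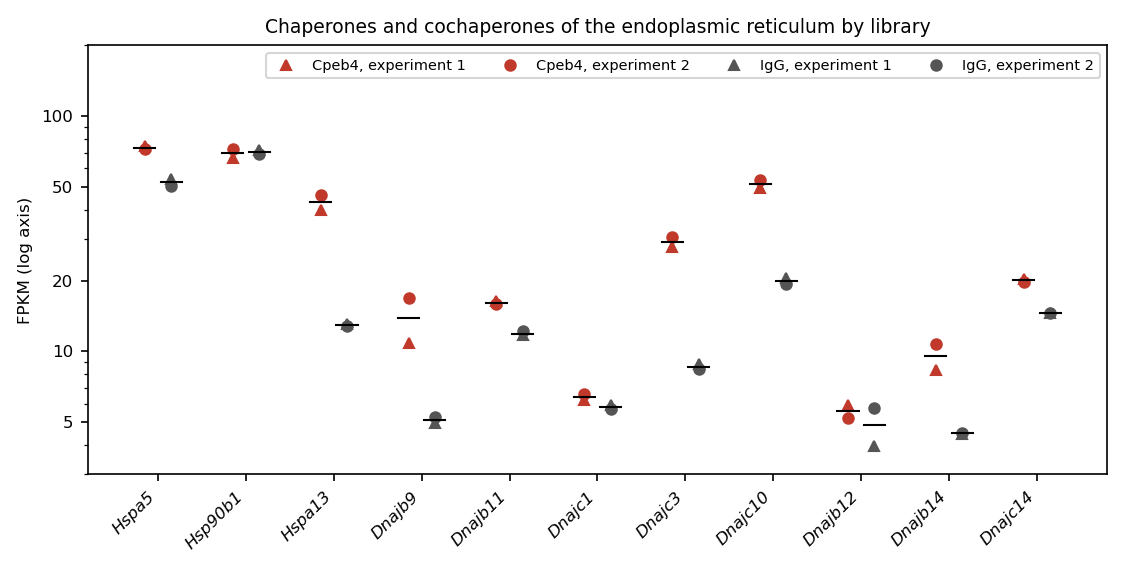
FPKM (y axis, log scale) of the 11 members assigned to the endoplasmic reticulum in each library, with Cpeb4 in red, IgG in grey, triangles for experiment 1, circles for experiment 2 and a bar for the mean. Hspa13, Dnajb9, Dnajc3, Dnajc10 and Dnajb14 separate widely by antibody, whereas Hsp90b1 overlaps at 66.4 to 72.9 FPKM.

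The subunits of the mitochondrial chaperonin, encoded by neighbouring genes, were called in opposite directions. Hspd1 (Hsp60) was at 46.5 and 47.3 FPKM in Cpeb4 and 31.5 and 29.7 in IgG, higher at log2 0.60 (SE 0.12, limma adjusted p = 0.000682). Hspe1 (Hsp10) was at 19.1 and 20.5 FPKM in Cpeb4 and 28.5 and 27.0 in IgG, lower at log2 -0.47 (SE 0.12, limma adjusted p = 0.00477). Neither gene overlapped between antibodies. The ratio of Hspd1 to Hspe1 was 2.44 and 2.30 in the Cpeb4 libraries and 1.11 and 1.10 in the IgG libraries, so the ratio was 2.15 times as high with Cpeb4 whatever the scaling.

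The calls of this pair have limits. That of Hspd1 held under 2 of 5 scalings and was lost without IgG replicate 2. That of Hspe1 held under all 5, but the other scalings lower every log2 fold change and so could not remove a lower call. The Hspe1 call was lost without IgG replicate 1 or 2. The log2 fold changes in these fits, 0.56 for Hspd1 and -0.43 and -0.50 for Hspe1, were near those with all libraries, while the SE rose from 0.12 to 0.19. Their gene spans share 96 bases, which cannot be assigned without strand. Pseudogenes of Hspe1 are listed separately at up to 1.06 FPKM. The gene length implied by the FPKM was 973 bases for Hspe1, the shortest of the tested members, and 2447 for Hspd1; its part in the difference was not tested.

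Among the other mitochondrial members, Dnajc19 (Tim14), which drives Hsp70 at the inner membrane import motor, was at 39.1 and 49.6 FPKM in Cpeb4 and 18.2 and 16.6 in IgG. It was 2.45-fold higher (log2 1.29, SE 0.13, limma adjusted p = 1.05e-06) under all 5 scalings, although its span overlaps that of Fxr1. Dnajc15, its paralog at the same motor, was at 3.83 and 4.43 against 2.97 and 2.77 FPKM (log2 0.40, limma adjusted p = 0.0262), under the authors' scaling alone. Hspa9, the Hsp70 that both serve, was at 55.1 and 58.6 against 48.8 and 47.0 FPKM and was not called (log2 0.24, 95% interval -0.02 to 0.51). Dnajc11 of the cristae organizing complex and Dnajc30 were not called, at log2 0.00 and 0.11.

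The log2 fold changes of the tested subunits of the Cct ring ranged from -0.07 to 1.19, and no test compared subunits. Cct4 was at 62.2 and 68.1 FPKM in Cpeb4 and 28.1 and 27.7 in IgG, 2.29-fold higher (log2 1.19, SE 0.12, limma adjusted p = 1.03e-06). Cct2, at 69.6 and 71.0 against 37.4 and 37.5 FPKM, and Cct6a, at 104 and 116 against 61.4 and 60.1, were higher at log2 0.89 and 0.84. These 3 were higher under all 5 scalings, with no overlap between antibodies.

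Cct3 and Tcp1 (Cct1) were higher at log2 0.43 and 0.42 (limma adjusted p = 0.00804 and 0.00983) under the authors' scaling alone. Cct8, with the highest mean over all 4 libraries, was at 86.6 and 96.1 FPKM in Cpeb4 and 91.1 and 86.9 in IgG, which overlap. Cct5 and Cct7 overlapped too, at 72.7 and 70.5 against 72.3 and 69.2 FPKM and at 53.8 and 49.2 against 56.4 and 51.8 FPKM. The log2 fold changes of Cct8, Cct5 and Cct7 were 0.04, 0.02 and -0.07, and their 95% intervals together spanned -0.33 to 0.31. Under the read-total scaling all 3 were called lower. Cct7 was called lower under 4 of the 5 scalings, Cct5 under 3 and Cct8 under 2.

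Subunits of the same ring therefore differed in their difference between antibodies. The ratio of Cct4 to Cct5 was 0.856 and 0.965 in the Cpeb4 libraries and 0.390 and 0.400 in the IgG libraries, 2.31 times as high on average. The ratio of Cct2 to Cct7 was 1.37 ± 0.104 (SD, n = 2) against 0.694 ± 0.043 (n = 2). Cct6b, a testis form of Cct6a, was below 0.57 FPKM in all libraries and was not tested. Of 8 subunits tested, 5 were higher, 62.5% beside 38.8% of all tested genes, and 3 not called. Under all 5 scalings 3 were higher, 37.5% beside 17.5%.

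**Figure D3:**
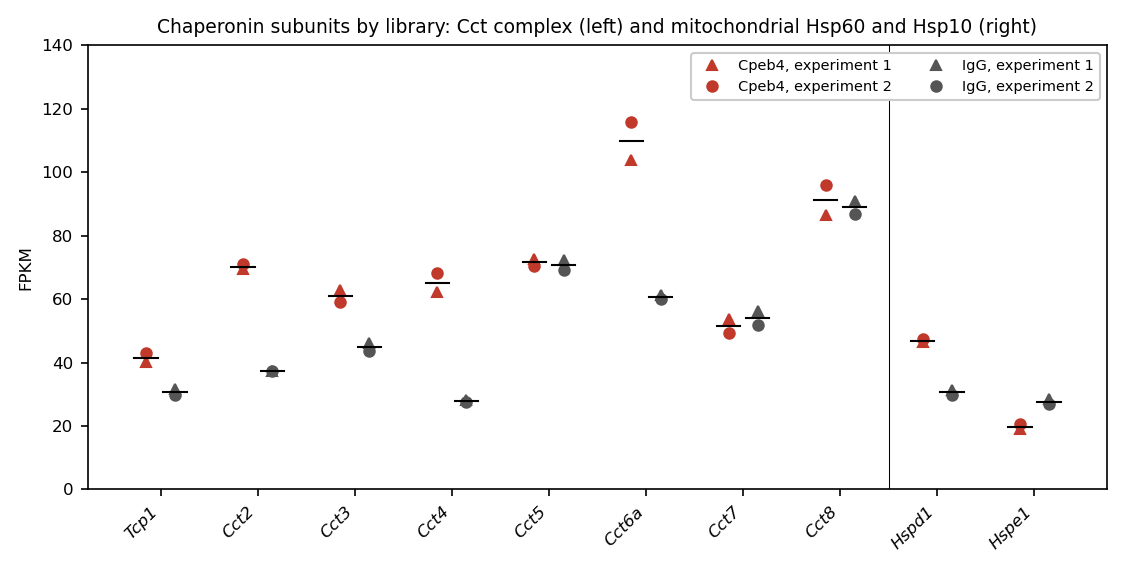
FPKM (y axis) of the 8 tested Cct subunits and of mitochondrial Hspd1 and Hspe1 in each library, with Cpeb4 in red, IgG in grey, triangles for experiment 1, circles for experiment 2 and a bar for the mean. Cct2, Cct4 and Cct6a separate by antibody while Cct5, Cct7 and Cct8 overlap, and Hspd1 and Hspe1 separate in opposite directions.

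Small heat shock proteins, which hold unfolded proteins without ATP, were rare. The 5 not tested, Hspb1, Hspb2, Hspb3, Hspb7 and Hspb9, were at or below 0.771 FPKM in every library, and Hspb2 was listed at 0 in 1 of them. Hspb8, the partner of Bag3 in selective autophagy, was at 1.42 and 1.53 FPKM in Cpeb4 and 1.29 and 1.2 in IgG, from 55 to 79 reads. Hspb11 (Ift25), which despite its symbol is an intraflagellar transport protein, was at 2.65 and 3.05 against 3.16 and 3.02 FPKM. Hspb8, Hspb6 and Hspb11 were not called, with log2 fold changes of 0.14, 0.10 and -0.09 and intervals from -0.40 to 0.49. Adding 1 to each FPKM compresses changes at these low levels, so the intervals do not bound the change in FPKM itself. In the authors' deposited comparison the SEs of Hspb8, Hspb6 and Hspb11 were 0.46, 0.33 and 0.36, against 0.17, 0.15 and 0.14 here. Changes in these genes may have gone undetected.

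By compartment, the share of tested members called higher was 72.7% in the ER (8 of 11), 51.9% in the cytosol (14 of 27), 50% in mitochondria (4 of 8) and 16.7% in the nucleus or ribosome (1 of 6). It was 2 of 3 for vesicles and endosomes and 2 of 13 for members with no assigned compartment, beside 38.8% of all tested genes. The median log2 fold changes were 0.48, 0.42, 0.32, 0.26, 0.90 and 0.11 in that order. By chaperone class, 18 of 40 J-domain members and 13 of 28 other members were higher, 45% and 46.4%. Under all 5 scalings it was 12 and 5, or 30% and 17.9%. These groups are small and no test compared them. Compartments were assigned by hand with earlier results known, and the shares depend on that assignment. Dnajc16, Dnajc18 and Dnajc25, at log2 0.11, 1.12 and -0.04, were among the members left unassigned.

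**Figure D4:**
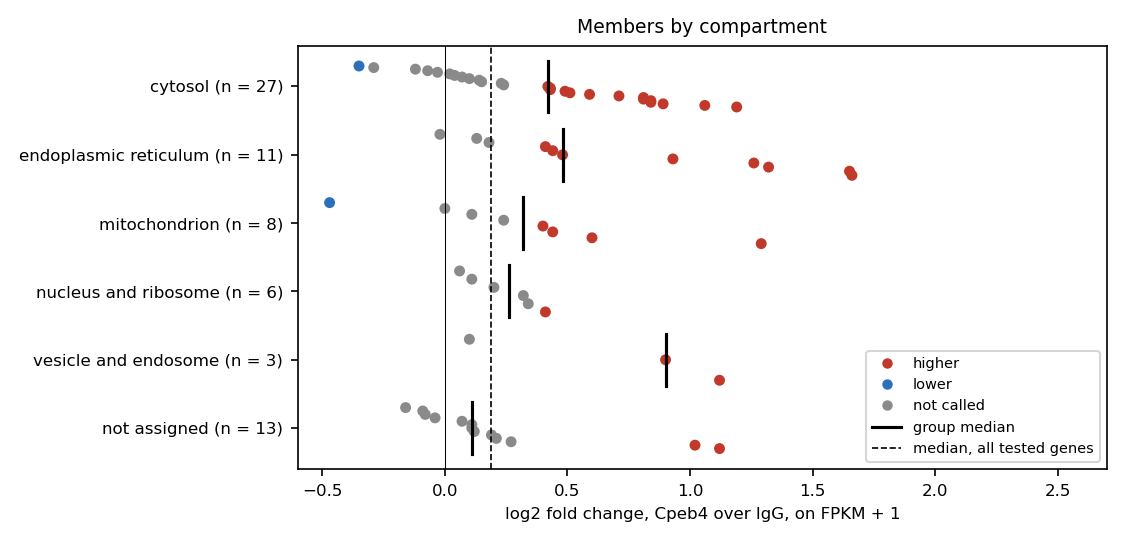
Log2 fold change of each tested member (x axis, Cpeb4 over IgG on FPKM + 1) by assigned compartment (y axis, with the number of members). Colours give the call, short bars the group medians and the dashed line the median of all tested genes. The ER reaches 1.66 and none of its members was called lower, while 11 of the 13 members with no assigned compartment were not called.

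Other genes of the chaperone network were taken from lists of cofactors and partners. Of 60 tested, 22 were higher and 3 lower, beside 38.8% and 11.6% of all tested genes, with a median log2 fold change of 0.21. Under all 5 scalings 14 were higher, beside 17.5%, and the same 3 were lower, which the other scalings could not change. The largest rise was that of Vbp1 (prefoldin 3), which passes actin and tubulin to Cct, at 142 and 199 FPKM in Cpeb4 and 42.3 and 37.0 in IgG (log2 2.06, SE 0.15, limma adjusted p = 6.91e-08). Chordc1, an Hsp90 cochaperone, Sgtb, a tetratricopeptide cochaperone, and Hikeshi, which carries Hsp70 into the nucleus, followed at log2 1.82, 1.58 and 1.47. The 3 lower genes were the exchange factor Hspbp1 at -0.36, the prefoldin subunit Pfdn6 at -0.34 and the heat shock transcription factor Hsf1 at -0.34. Hsf1 was at 15 and 12.7 FPKM in Cpeb4 and 17.2 and 18.5 in IgG (limma adjusted p = 0.0344).

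By list, beside 38.8% higher and 11.6% lower among all tested genes, 4 of 11 prefoldin subunits and chaperonin partners were higher and 1 lower. Of 19 genes listed as Hsp90 cochaperones, among them the Hsp90 paralog Trap1, 5 were higher and none lower, smaller shares than the background. Of 12 nucleotide exchange and Hip-type cofactors of Hsp70, 5 were higher and 1 lower. Among 6 ubiquitin and triage partners 3 were higher, and among 8 other J-domain or Hsp70-linked proteins 4 were, with none lower in either. Among 4 tested genes of the heat shock factors and import list, 1 was higher and 1 lower.

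Some measures of whole libraries moved with the antibody. Libraries held 22486721 to 35037171 reads on genes. Cpeb4, the antibody's target, was at 26.7 and 38.3 FPKM in Cpeb4 and 9.04 and 9.66 in IgG. Across all tested genes with recovered reads, the log2 fold change correlated with gene length at 0.33 and with mean level at 0.34; across the 68 members the values were 0.31 and 0.22. The members were more abundant than other tested genes, with a median of 16.8 against 7.94 FPKM, and as long, 3087 against 3084 bases. Among genes with at least 5 FPKM in at least 2 libraries the median log2 fold change was 0.41 for members and 0.31 for all. In that set 30 of 55 members and 5181 of all 10100 genes were called higher. Of 46 tested markers of the cell types of this tissue 20 were higher and 11 lower, beside 38.8% and 11.6% of all tested genes. Under all 5 scalings 9 of the 46 were higher, beside 17.5%. Of 8 neuroblast markers 5 were higher, 4 of them under all 5 scalings, and of 5 ependymal markers 3 were lower. Sums over each list were taken with the authors' scaling alone. Neuroblast markers were at 718 to 750 FPKM in Cpeb4 and 480 to 482 in IgG, and ependymal markers at 71.9 to 84.2 and 97.8 to 101. Sums do not speak for every marker. The stem cell and radial glia sum was higher with Cpeb4, at 848 to 891 against 503 to 529 FPKM, mostly through Slc1a3, while Nes was called lower. Astrocyte and oligodendrocyte lineage sums were higher too, at 621 to 678 against 396 to 421 and 456 to 485 against 312 to 323. Of 5 astrocyte markers 3 were called higher, and 1 under all 5 scalings. Of 6 oligodendrocyte lineage markers 6 were called higher, but 0 under all 5 scalings. Their median log2 fold change was 0.50, and 0.01 with read totals. Microglial markers summed to 143 to 147 against 123 to 133, with 1, P2ry12, called higher and 3 lower. Endothelial and mural markers summed to 81.5 to 82.3 against 62.8 to 63.9, with Rgs5 called higher and Kdr lower. The blood and choroid plexus sum was lower, at 203 to 227 against 262 to 288 FPKM; Hba-a1, Hbb-bs and Alas2 of red cells were called lower, and the choroid plexus marker Ttr was not called, at 67.6 and 61.7 against 56.9 and 52.4. None of the 47 markers was at 0 in any library, and the part of cell type, length and level in the results was not tested.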

How the data were processed

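RNA from anti-Cpeb4 and IgG immunoprecipitates (2 libraries each) was measured after SMART-Seq v4 cDNA synthesis, which does not mark strand, and Nextera XT library preparation, per the labels' protocols. Tools listed in the submitters' processing notes, with no roles, are DESeq2 1.26.0, HTSeq 0.6.1p2, STAR 2.6.0c, Trim Galore 0.5.0 and FastQC 0.11.5, and the build is mm10. The authors deposited FPKM per library. Their mean level, a signal, was deposited as reads divided by size factors. The authors' deposited comparison holds log2 fold changes with standard errors, a test score and p-values, per the file headers. Columns of other samples numbered 0.

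The FPKM steps, joined to the authors' mean level, returned reads that were whole to within 0.01 for 100% of values (100% recovered on simulated data with 19563 genes). Reads served for depth, scalings and limma-voom; without molecular identifiers they are not independent molecules. Genes reaching 1 FPKM in 2 or more libraries, 15745 in all, entered limma 3.58.1 (R 4.3.3) as log2(FPKM + 1), with trended prior, experiment as block, two-sided, Benjamini-Hochberg adjustment. A fold change on this scale understates the change of low genes. The block left 1 residual degree of freedom and the prior added 14.6. Titles give a Cpeb4 and an IgG library the same experiment number, hence the block; the correlation of same-numbered deviations was 0.00238. On simulated data (15745 genes, 200 changed, 5 tables) limma recovered 99% of log2 changes of 1 and 100% of those of 2. Unchanged genes made up 17.5% of its calls, above the nominal 5%.

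Members, families, compartments, lists and alternatives were chosen with earlier results of these data known. Values per library are given for the highest, lowest and most abundant tested member of each family and for the 6 largest changes in each direction; per-library values of other members were added by role after values were seen. Of the related genes, the 4 largest called changes in each direction are named (3 were called lower). Limma was also run with 4 other scalings, no filter or 5 FPKM, a pseudocount of 0.1, voom, no block, and each library left out. Compartments were assigned by hand. Sites were searched in RefSeq promoters (GRCm38.p6).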

Additional observations from a re-analysis of the deposited data

How the results depend on the processing

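Of 31 members called higher, 16 were called in each of 13 alternatives and 17 in all of them but the one with no filter; neither lower call was. With read totals, 17 members were higher and 21 lower, by upper quartile 17 and 17, by trimmed mean of M-values 20 and 5, after centring on the median 18 and 10, and with no filter 19 and 0. Related genes numbered 14 higher and 27 lower with read totals, 14 and 25 by upper quartile, 16 lower by trimmed mean of M-values, 20 lower after centring and 0 lower with no filter. All tested genes numbered 2759 higher and 6670 lower with read totals, 3088 and 5821 by upper quartile, 4028 and 4024 by trimmed mean of M-values, 3718 and 4715 after centring, 3915 and 875 with no filter, and 937 lower at 5 FPKM. With 1 library left out, which leaves no room for the block, 19 to 34 members were higher and 0 to 3 lower, 15 to 31 related genes higher and 0 to 7 lower, and 3977 to 6534 genes higher and 867 to 2497 lower. The scalings lower all log2 fold changes together by construction; the cause of the other shifts was not tested. Without the replicate block, 32 members were higher and 2 lower, and no member called with it was lost; a pseudocount of 0.1 gave 31 and 2 and limma-voom 33 and 3.

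Log2 fold changes that changed sign, where a call was made in either fit, came from scaling alone. With read totals they were -0.07 for Cct3, -0.49 for Cct5, -0.47 for Cct8, -0.05 for Dnaja3, -0.08 for Dnajb11, -0.05 for Dnajb5, -0.32 for Dnajc1, -0.48 for Dnajc11, -0.36 for Dnajc13, -0.04 for Dnajc14, -0.35 for Dnajc30, -0.44 for Dnajc8, -0.39 for Dnajc9, -0.02 for Hsp90aa1, -0.07 for Hspa14, -0.34 for Hspa2, -0.02 for Hspa5, -0.41 for Hsph1 and -0.08 for Tcp1. By upper quartile they were 0.00 for Cct3 (just below 0), -0.42 for Cct5, -0.41 for Cct8, -0.01 for Dnajb11, -0.41 for Dnajc11, -0.37 for Dnajc8, -0.32 for Dnajc9, -0.01 for Hspa14, -0.35 for Hsph1 and -0.01 for Tcp1. After centring they were -0.31 for Cct5 and -0.31 for Dnajc11.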
